A study of Arabidopsis thaliana with 6 samples.

Results

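Iron uptake and iron storage in *A. thaliana* were followed through 10 genes in polyadenylated RNA of 14-d-old seedlings: the uptake genes *IRT1* and *FRO2*, the regulators *FIT*, *BHLH38*, *BHLH39*, *BHLH100*, *BHLH101*, *BTS* and *PYE*, and the storage gene *FER1*. They were taken by name as textbook genes of the response to iron deficiency, with earlier results of these data known. They are 10 of the 64621 annotated features (33242 of them genes on the 5 chromosomes) for which each library holds a value. Seedlings were of 3 genotypes in the Col-0 ecotype with 2 replicates each: WT, the *nerd-1* insertion mutant, and *nerd-1*+T, which is *nerd-1* carrying a transgene for a flag-tagged version of the NERD protein. NERD was studied for its part in ending transcription. The paper calls *nerd-1*+T its complemented line and reports that transcription past gene ends in *nerd-1* was reverted in it. Silencing of the pseudogene *psORF* was not restored there. Below, "mutant lines" means the 2 lines with the *nerd-1* allele, 1 of them complemented. Each mutant state is 1 allele, *nerd-1*+T also carries the *nerd-1* allele, and the promoter of its transgene was not given for these libraries. Whether these seedlings grew in soil or on MS plates, and so how much iron they were given, is not stated for the libraries. No genotype was grown with and without iron, so all values below compare genotypes under 1 growth condition.

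Iron is abundant in soil but poorly soluble, and the roots of *A. thaliana* acidify the soil, reduce ferric iron at the surface with the reductase FRO2 and import ferrous iron with the transporter IRT1. FIT, a basic helix-loop-helix (bHLH) protein of the root, turns on *IRT1* and *FRO2* together with a partner from the class Ib bHLH proteins, which are encoded by *BHLH38*, *BHLH39*, *BHLH100* and *BHLH101*. The class Ib genes and *PYE* are themselves turned on in iron deficiency by class IVc bHLH proteins such as ILR3, and BTS, an E3 ubiquitin ligase, marks such proteins for degradation. PYE is a bHLH repressor of genes of iron transport and storage, and FER1 is a ferritin, a plastid protein shell that stores iron and whose transcript rises with iron supply.

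The values are FPKM (fragments per kilobase of transcript, scaled to the mapped reads of the library), so levels of different genes can be set side by side per length. Tests compared log2(FPKM + 1) with limma over the 20249 features that had at least 1 FPKM in at least 2 libraries, and *p*-values were Benjamini-Hochberg adjusted over all of them with a threshold of 0.05. A log2 change on this scale understates the change of genes near 1 FPKM, so their FPKM or the ratio of mean FPKM is given too. The *NERD* transcript (AT2G16485) was at 14.1 and 13.9 FPKM in WT, 7.59 and 7.45 in *nerd-1*, with 63.7 and 63.5 in *nerd-1*+T, so that *nerd-1* held 0.538 of the WT mean and *nerd-1*+T 4.55 times it. A value over the whole gene does not show whether these transcripts cross the insertion. Genotypes differed widely: 55.7% of the tested features passed the test in *nerd-1* against WT (19.4% raised, 36.3% lowered), 53.1% in *nerd-1*+T against WT (13.2% raised, 39.8% lowered) and 37.9% in *nerd-1*+T against *nerd-1* (14.0% raised, 24.0% lowered). The median feature itself lay at a log2 change of -0.11, -0.17 and -0.06 in these comparisons. The split of calls moved with the scaling: with libraries scaled by their median feature, 5030 features were raised and 5605 lowered in *nerd-1* against WT, in place of 3924 and 7351, and 4087 and 4085 in *nerd-1*+T against WT, in place of 2675 and 8069. Scaled to the FPKM total, *nerd-1* against WT gave 2653 raised and 10305 lowered, and *nerd-1*+T against *nerd-1* 5662 and 2388 in place of 2834 and 4850 (4039 and 3300 by the median feature). A single metallothionein gene, *MT1A*, took 12.9% and 13.5% of the FPKM sum in *nerd-1* against 1.10% to 3.57% in the other 4 libraries. The *nerd-1*+T libraries were the least alike, with a median SD of log2 values between replicates of 0.09 against 0.04 in both other genotypes, and the photosynthesis gene *CAB1* was listed at 0 in both *nerd-1* libraries and in *nerd-1*+T replicate 2.

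The 10 genes lie on all 5 chromosomes of the TAIR10 build. *BHLH38* (AT3G56970; chromosome 3, 21084035 to 21085245, minus strand, 2 exons) and *BHLH39* (AT3G56980; 21086390 to 21087710, minus strand, 2 exons) stand in tandem with 1144 bp between them. *BHLH100* (AT2G41240) is on chromosome 2 from 17198037 to 17199454 and *BHLH101* (AT5G04150) on chromosome 5 from 1138410 to 1139633, both on the minus strand. *FIT* (AT2G28160) spans 12004658 to 12006276 on chromosome 2, *IRT1* (AT4G19690) spans 10707344 to 10709015 on chromosome 4 and *FRO2* (AT1G01580) spans 208995 to 213082 on chromosome 1, all on the plus strand. *BTS* (AT3G18290; 6273966 to 6280562, 14 exons) and *PYE* (AT3G47640; 17567126 to 17569394, 5 exons) are on the plus strand of chromosome 3, and *FER1* (AT5G01600; 227953 to 230051, 8 exons) is on the minus strand of chromosome 5. No 2 of them share an exact stretch of transcript longer than 34 bases (*BHLH38* with *BHLH39*), which is shorter than the 125-base reads.

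The sequences just upstream of the class Ib genes and *BTS* are shown because the class Ib genes moved together in *nerd-1* and apart in *nerd-1*+T, because BTS limits the activators of the class Ib genes, and because bHLH proteins as a family bind the E-box. Each line gives the 150 bases that end at the base before the annotated gene start, 5′ to 3′ on the strand of the gene, with E-boxes (CANNTG on either strand, of which the G-box CACGTG is 1 form) in capitals. The sequences were read from the TAIR10.1 assembly by RefSeq at chr3:21085246-21085395 for *BHLH38*, chr3:21087711-21087860 for *BHLH39*, chr2:17199455-17199604 for *BHLH100*, chr5:1139634-1139783 for *BHLH101* and chr3:6273816-6273965 for *BTS*.
BHLH38: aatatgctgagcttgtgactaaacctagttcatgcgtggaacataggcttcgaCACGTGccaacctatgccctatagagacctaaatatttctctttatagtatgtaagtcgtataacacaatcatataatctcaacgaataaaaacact
BHLH39: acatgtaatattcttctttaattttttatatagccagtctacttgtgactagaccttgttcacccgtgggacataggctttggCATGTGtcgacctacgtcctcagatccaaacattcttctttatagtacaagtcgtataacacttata
BHLH100: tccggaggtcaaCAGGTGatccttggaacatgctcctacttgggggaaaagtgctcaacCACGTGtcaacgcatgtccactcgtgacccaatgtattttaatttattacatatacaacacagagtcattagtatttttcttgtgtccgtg
BHLH101: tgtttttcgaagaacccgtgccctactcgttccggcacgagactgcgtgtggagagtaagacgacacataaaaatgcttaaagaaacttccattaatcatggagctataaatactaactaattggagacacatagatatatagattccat
BTS: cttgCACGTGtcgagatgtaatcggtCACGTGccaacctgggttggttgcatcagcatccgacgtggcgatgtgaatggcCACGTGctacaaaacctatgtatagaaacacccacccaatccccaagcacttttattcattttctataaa

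Over a window of 250 bases upstream, a G-box stood before 3 of the 10 genes, with 1 copy each for *BHLH38* and *BHLH100* and 3 copies for *BTS*, while 6.49% of 27443 protein-coding genes held 1 or more in the same window. An E-box, which every G-box also is, stood before 5 of the 10 (*FIT*, *BHLH38*, *BHLH39*, *BHLH100* and *BTS*) and before 55.3% of all these genes. The phosphate response element P1BS (GNATATNC) was before none of the 10 and before 5.46% of all. Of the class Ib genes *BHLH101* was the one with neither motif in these windows. These are matches of letters and not binding sites.

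In WT seedlings the levels of the 10 genes spanned from *FER1* at 139 ± 2.93 FPKM (SD, n = 2) to *BHLH100* at 0.353 ± 0.125 (SD, n = 2). Between them came *BTS* at 30.6 FPKM, *PYE* at 28.9, *FIT* at 12.4, *IRT1* at 7.71, *BHLH101* at 5.58, *FRO2* at 1.71, *BHLH39* at 1.27 and *BHLH38* at 0.707, and each was above the next in both replicates. Among the class Ib genes *BHLH101* was thus the highest per length and *BHLH100* the lowest. The order changed in the mutant lines. In *nerd-1*, *IRT1* at 15.1 FPKM stood above *PYE* at 11.4 and *BHLH101* at 11.2, whose replicates overlapped, and *FIT* fell to the sixth place at 5.10. In *nerd-1*+T, *FRO2* at 3.31 FPKM stood above *BHLH101* at 2.94, the replicates of *PYE* (mean 8.15) and *FIT* (mean 7.57) overlapped, and so did those of *BHLH38* (mean 1.22) and *BHLH39* (mean 1.12).

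**Figure D1:**
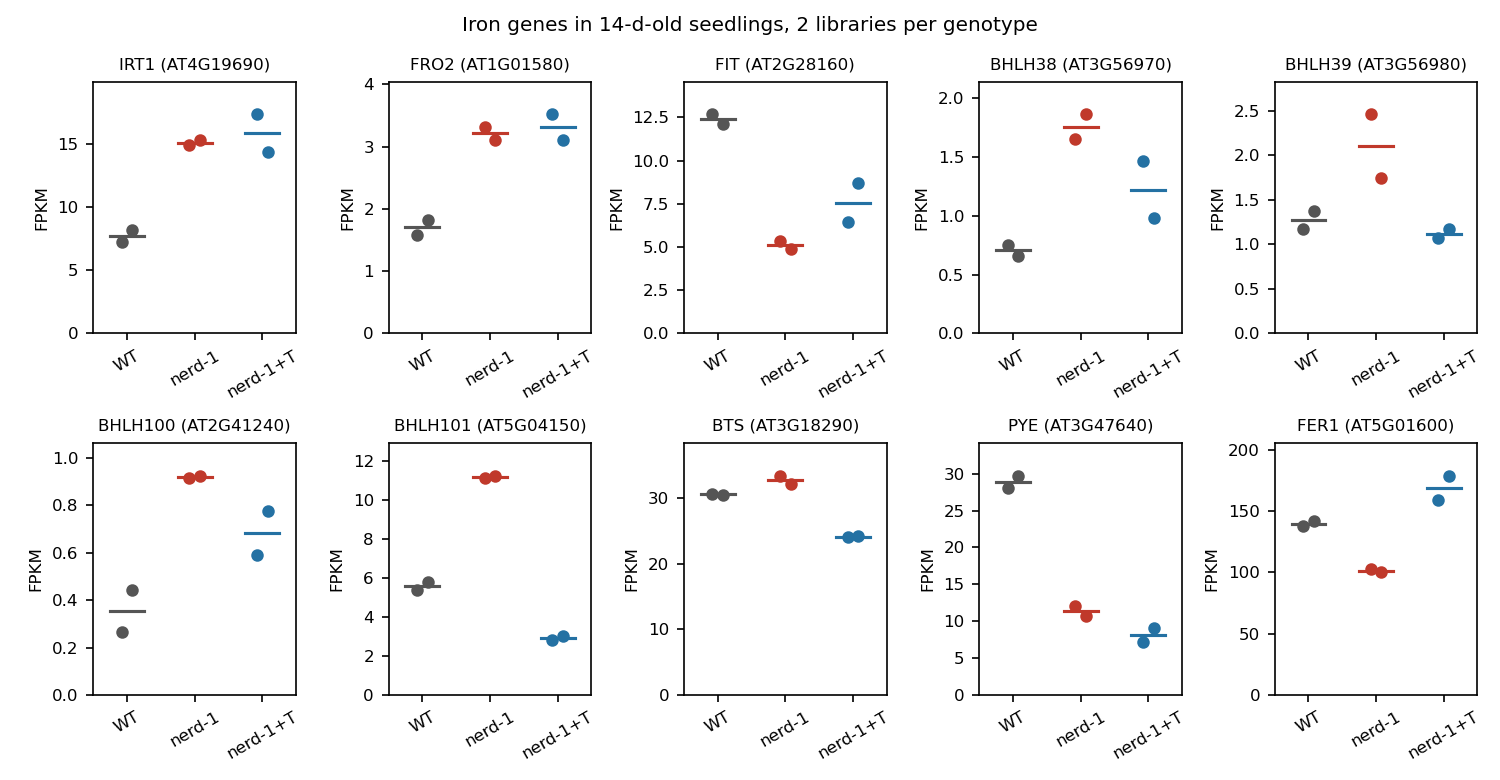
FPKM of the 10 iron genes in each of the 6 libraries, 1 panel per gene with its own axis from 0. Points are libraries and bars are the mean of the 2 replicates of WT (grey), *nerd-1* (red) and *nerd-1*+T (blue). *IRT1* and *FRO2* are high in both *nerd-1* and *nerd-1*+T, and *PYE* and *FIT* are low in both. *BHLH101* and *FER1* lie on opposite sides of WT in the 2 lines.

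Against WT, 8 of the 9 genes tested changed in *nerd-1*, where 55.7% of all tested features did. The share raised was 5 of 9 against 19.4% of all features, and the share lowered was 3 of 9 against 36.3%. Their median log2 change was 0.44, beside -0.11 over all features. The genes were chosen with earlier results of these data known, so these shares describe the set and do not test it. Both uptake genes and the 3 tested class Ib genes were higher, *FIT*, *PYE* and *FER1* were lower, and *BTS* did not pass the test. *BHLH100* was below 1 FPKM in every library and was not tested. *BHLH38* was below 1 FPKM in both WT libraries and passed the filter only through libraries of the mutant lines, where it was high, so its place among the genes tested and raised is in part set by the filter. Under the stricter filter, with 1 FPKM or more required of all 6 libraries, it was not tested, and 7 of the other 8 genes were called.

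In *nerd-1*+T, 7 of the 9 tested genes differed from WT, where 53.1% of all features did, with 3 raised (13.2% of all features) and 4 lowered (39.8%). The median log2 change of the 9 was -0.10, beside -0.17 over all features. *IRT1*, *FRO2* and *FER1* were raised, *FIT*, *BHLH101*, *BTS* and *PYE* were lowered, and *BHLH38* and *BHLH39* did not pass. Between the lines, *nerd-1*+T against *nerd-1*, 6 of 9 differed against 37.9% of all features, with *FIT* and *FER1* higher in *nerd-1*+T (14.0% of all features) and *BHLH39*, *BHLH101*, *BTS* and *PYE* lower (24.0%). This last count is the least firm, since 3 of the 6 calls were lost when either WT replicate or *nerd-1* replicate 1 was left out of the fit. The median of the 9 was -0.32 against -0.06 over all features. All comparisons with WT share the same 2 WT libraries, and with 2 libraries against 2 an exact permutation test of a single gene cannot go below 0.333 (two-sided), so that calls rest on the spread pooled across features. Nothing states that the replicates came from separate cultures, and the *p*-values then measure the spread between these libraries, which may be technical.

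**Figure D2:**
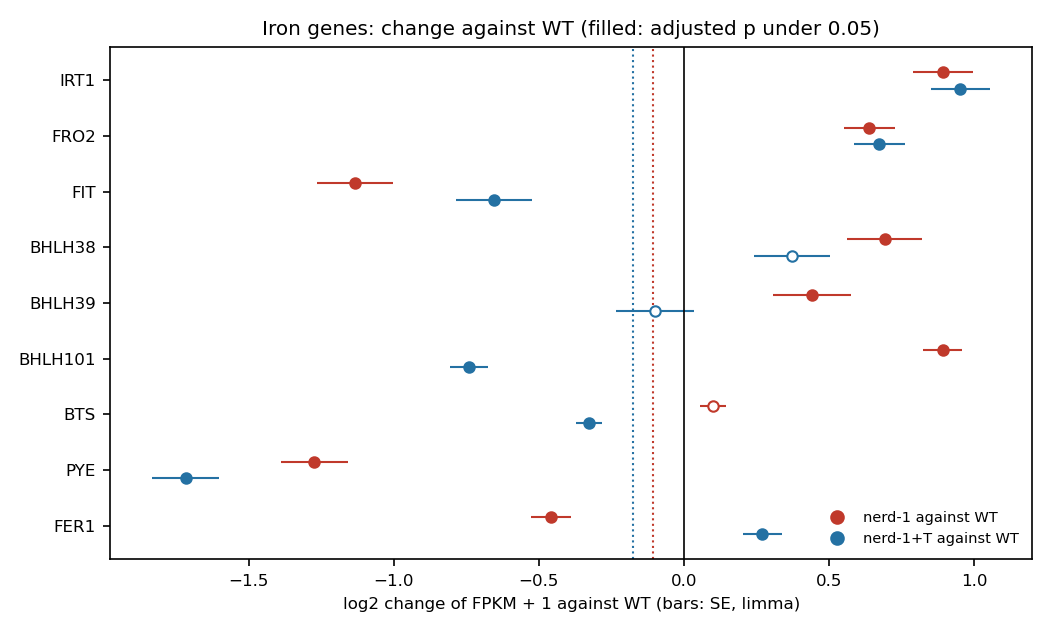
Log2 change of FPKM + 1 against WT for the 9 tested iron genes in *nerd-1* (red) and *nerd-1*+T (blue), with bars for the SE from limma. Filled points have an adjusted *p* under 0.05 and dotted lines mark the median of all 20249 tested features in each comparison. The red and blue points of *IRT1* and *FRO2* overlap within their SE, while those of *BHLH101* and *FER1* stand on opposite sides of 0.

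Iron uptake. *IRT1*, the importer of ferrous iron, was at 7.24 and 8.18 FPKM in WT, 14.9 and 15.4 in *nerd-1*, with 17.4 and 14.4 in *nerd-1*+T. All 4 libraries of the mutant lines were above both WT libraries, and the ranges of the 2 mutant lines overlapped. The ratio of means was 1.96 for *nerd-1* (log2 change 0.89, SE 0.10, adjusted *p* = 0.00218 in limma) and 2.06 for *nerd-1*+T (0.95, SE 0.10, adjusted *p* = 0.00152). *FRO2*, the ferric chelate reductase, was at 1.59 and 1.83 FPKM in WT, 3.31 and 3.11 in *nerd-1*, with 3.52 and 3.11 in *nerd-1*+T. It showed the same order of libraries, WT below all others, with ratios of 1.88 (log2 change 0.64, adjusted *p* = 0.0035) and 1.94 (log2 change 0.67, adjusted *p* = 0.00278). The difference between the lines was 0.06 for *IRT1* (95% interval -0.20 to 0.32) and 0.03 for *FRO2* (-0.19 to 0.26) on the log2 scale, and neither passed the test (adjusted *p* = 0.665 and 0.779 in limma). Their calls against WT held under every alternative setting that was run.

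Genes of the same families stand next to both. *IRT2*, the gene 2505 bp upstream of *IRT1* on the same strand, was at 1.71 and 2.47 FPKM in WT, 2.91 and 2.502 in *nerd-1*, with 2.34 and 1.499 in *nerd-1*+T. Its *nerd-1*+T libraries overlapped those of WT, its *nerd-1* libraries were just above them, and it did not pass the test in either line (log2 changes 0.27 and -0.09, limma adjusted *p* = 0.261 and 0.718). *FRO1*, downstream of *FRO2*, was below the filter and not tested, between 0.253 and 0.629 FPKM in all 6 libraries. In these whole seedlings a larger share of root cells and more transcript per cell cannot be told apart. A list of 21 genes marking root tissue, none at 0 in any library, summed to 205 and 205 FPKM in WT, 171 and 158 in *nerd-1*, with 184 and 176 in *nerd-1*+T. Of its 20 tested genes, *nerd-1* had 1 higher and 10 lower than WT and *nerd-1*+T had 0 higher and 8 lower, beside 36.3% and 39.8% of all features lowered. Their median log2 change was -0.24 in *nerd-1* (-0.19 for *nerd-1*+T), beside -0.11 and -0.17 over all features. All 8 genes of a list marking shoot tissue were tested. Of these, *nerd-1* had 3 higher and 2 lower than WT (median -0.02), beside 19.4% of all features raised and 36.3% lowered. For *nerd-1*+T the counts were 1 higher and 1 lower (median -0.03), beside 13.2% raised and 39.8% lowered. *CAB1* is 1 of the 2 counted as lower for *nerd-1*. Both *nerd-1* libraries list it at 0, against 11763 and 11623 FPKM in WT. An exact 0 can be a failed estimate, so this call may not reflect a lower level. The part of these markers in the uptake values was not tested.

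The FIT branch. *FIT*, the regulator that acts upstream of both uptake genes, was at 12.7 and 12.1 FPKM in WT, 5.33 and 4.87 in *nerd-1*, with 6.46 and 8.69 in *nerd-1*+T. It was lower in all 4 libraries of the mutant lines than in WT, the opposite direction to *IRT1* and *FRO2*, and *nerd-1*+T lay between the others without overlap. The mean was 0.412 of WT in *nerd-1* (log2 change -1.13, SE 0.13, limma adjusted *p* = 0.0022) and 0.612 of WT in *nerd-1*+T (-0.65, SE 0.13, adjusted *p* = 0.0106). The call in *nerd-1*+T was lost when either WT replicate was left out (adjusted *p* = 0.0625 without replicate 1 and 0.0523 without replicate 2). Between the lines *FIT* was higher in *nerd-1*+T by 0.48 (adjusted *p* = 0.0381), a call that was lost in 7 of 15 alternatives, among them leaving out WT replicate 1 (0.078), WT replicate 2 (0.0781), *nerd-1* replicate 1 (0.125) or *nerd-1* replicate 2 (0.179). The part of the lower root marker sum in the *FIT* values was not tested.

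**Figure D3:**
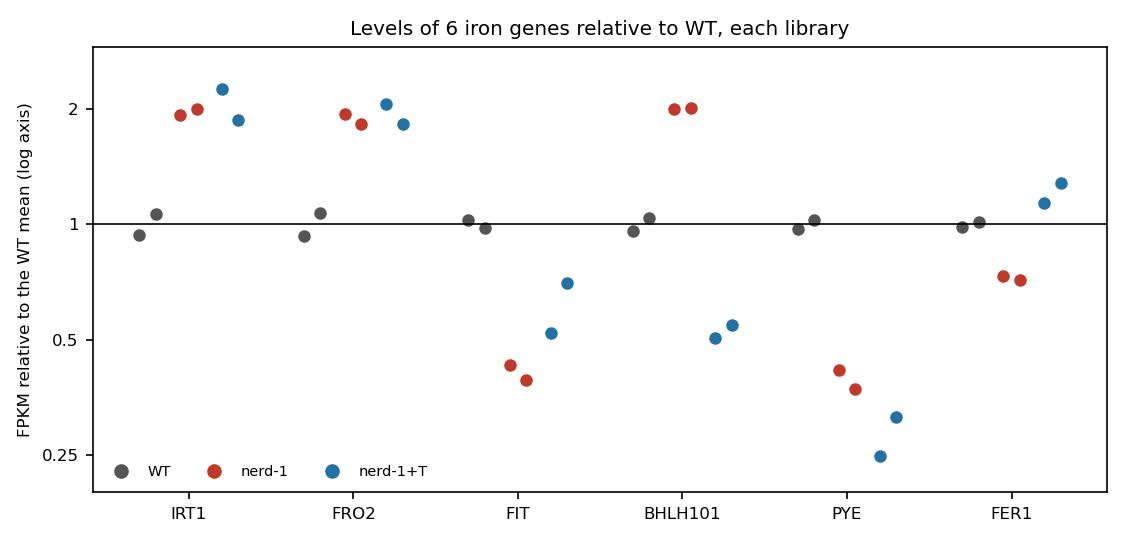
FPKM of 6 iron genes in each library divided by the WT mean of that gene, on a log axis. Points are the 2 libraries of each genotype and the line at 1 is the WT mean. *IRT1* and *FRO2* lie near 2 in both *nerd-1* and *nerd-1*+T although *FIT* lies below 1 in both. *PYE* is below 0.5 in both, and *BHLH101* is near 2 in *nerd-1* and near 0.5 in *nerd-1*+T.

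Class Ib bHLH genes. These 4 genes, which encode the partners of FIT, all had higher values in *nerd-1* than in WT (the 3 tested passed the test) and differed among themselves in *nerd-1*+T. *BHLH101* was at 5.36 and 5.80 FPKM in WT, 11.1 and 11.2 in *nerd-1*, with 2.82 and 3.05 in *nerd-1*+T. The 3 genotypes did not overlap, with *nerd-1* highest and *nerd-1*+T lowest. Its mean was 2.005 times WT in *nerd-1* (log2 change 0.89, SE 0.07, limma adjusted *p* = 0.000693) and 0.526 of WT in *nerd-1*+T (-0.74, SE 0.07, adjusted *p* = 0.000835). The difference between the lines was -1.63 (95% interval -1.80 to -1.47, adjusted *p* = 0.000276), and all 3 calls held under every alternative run.

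*BHLH38* was at 0.754 and 0.661 FPKM in WT, 1.65 and 1.86 in *nerd-1*, with 1.46 and 0.982 in *nerd-1*+T. Both mutant lines were above WT in every library, and the *nerd-1*+T replicates stood further apart than those of the other genotypes. The ratio of means was 2.48 in *nerd-1* (log2 change 0.69, adjusted *p* = 0.00847) and 1.73 in *nerd-1*+T (log2 change 0.37, adjusted *p* = 0.0587). The change in *nerd-1*+T passed in limma after scaling by the median feature (adjusted *p* = 0.043) and without trend (0.0438). Its log2 change was 0.53 when *nerd-1*+T replicate 2 was left out. The call in *nerd-1* was lost without WT replicate 2 (adjusted *p* = 0.05 to the digits kept) and without *nerd-1* replicate 2 (0.0574). Between the lines the change of -0.32 did not pass (adjusted *p* = 0.106), but did at 0.0248 without *nerd-1*+T replicate 1.

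*BHLH39*, its tandem neighbour, was at 1.17 and 1.38 FPKM in WT, 2.46 and 1.74 in *nerd-1*, with 1.07 and 1.17 in *nerd-1*+T. It was higher in both *nerd-1* libraries than in the other 4, and *nerd-1*+T was at the level of WT. The ratio in *nerd-1* was 1.65 (log2 change 0.44, adjusted *p* = 0.0384), and that in *nerd-1*+T 0.88 (-0.10, 95% interval -0.44 to 0.24, adjusted *p* = 0.559). The *nerd-1* replicates differed by more than those of the other class Ib genes, and the call was lost without WT replicate 1 (adjusted *p* = 0.156), WT replicate 2 (0.0865) or *nerd-1* replicate 1 (0.153, with the log2 change at 0.27), with a block for the replicate number (0.0614), with no filter (0.0651) and after scaling to the FPKM total (0.0731). The decrease of 0.54 from *nerd-1* to *nerd-1*+T (adjusted *p* = 0.0303) was lost in 9 of 15 alternatives, among them leaving out WT replicate 1 (0.0576), WT replicate 2 (0.0577), *nerd-1* replicate 1 (0.123), *nerd-1*+T replicate 1 (0.061) or *nerd-1*+T replicate 2 (0.0548).

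*BHLH100*, the lowest of the 4, was at 0.264 and 0.441 FPKM in WT, 0.914 and 0.925 in *nerd-1*, with 0.589 and 0.775 in *nerd-1*+T. Its genotypes did not overlap, with *nerd-1* highest and WT lowest, as for *BHLH38*. With no filter on low values the log2 change was 0.51 in *nerd-1* (adjusted *p* = 0.0181) and 0.32 in *nerd-1*+T (adjusted *p* = 0.0586). The means of the 4 class Ib genes in *nerd-1*+T relative to WT were therefore spread from 0.526 (*BHLH101*) to above WT (*BHLH38* and *BHLH100*).

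Reads of genes on opposite strands could not be told apart where the genes overlap, because the strand setting of the counting is not stated. *BHLH38* overlaps *PIP5K4* by 386 bp at its 3′ end, and *PIP5K4* was at 3.34 and 3.59 FPKM in WT, 3.14 and 2.67 in *nerd-1*, with 2.72 and 2.74 in *nerd-1*+T. *BHLH101* overlaps 79 bp of *GLU1*, a far more abundant gene at 422 and 415 FPKM in WT, 375 and 352 in *nerd-1*, with 326 and 303 in *nerd-1*+T. In *nerd-1* both partners were lower than in WT and both bHLH genes higher. *GLU1* and *BHLH101* were both lower in *nerd-1*+T. The part of overlapping reads in these values was not tested. *EDA7*, 316 bp upstream of *BHLH39* on the same strand, was at 15.9 and 16.1 FPKM in WT, 10.5 and 10.7 in *nerd-1*, with 10.8 and 12.9 in *nerd-1*+T. It was lower than WT in all libraries of both lines, in which *BHLH39* was higher (*nerd-1*) or at the level of WT (*nerd-1*+T).

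BTS and PYE. *BTS*, the E3 ligase that limits the iron deficiency response, was at 30.6 and 30.5 FPKM in WT, 33.4 and 32.2 in *nerd-1*, with 24.0 and 24.3 in *nerd-1*+T. The 3 genotypes did not overlap, and *nerd-1*+T was the lowest. The mean in *nerd-1*+T was 0.789 of WT (log2 change -0.33, SE 0.04, limma adjusted *p* = 0.003) and the change from *nerd-1* was -0.43 (adjusted *p* = 0.00286), and both calls held under every alternative. Against WT, the change in *nerd-1* of 0.10 did not pass (95% interval -0.01 to 0.21, adjusted *p* = 0.11), was -0.05 after scaling to the FPKM total, and passed at 0.0194 after scaling by the median feature and at 0.0475 and 0.0473 without *nerd-1*+T replicate 1 or 2.

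*PYE*, the repressor of iron transport and storage genes, was at 28.1 and 29.7 FPKM in WT, 12.03 and 10.7 in *nerd-1*, with 7.18 and 9.11 in *nerd-1*+T. It had the lowest ratio to WT of the 10 genes in both lines, and again WT lay above all libraries of the mutant lines. The mean was 0.394 of WT in *nerd-1* (log2 change -1.27, SE 0.12, limma adjusted *p* = 0.00116) and 0.282 of WT in *nerd-1*+T (-1.72, SE 0.12, adjusted *p* = 0.000369), with both calls kept under every alternative. The further decrease of 0.44 between the lines (adjusted *p* = 0.0336) was lost in 8 of 15 alternatives, among them leaving out either WT replicate (0.0703 and 0.0704) or either *nerd-1* replicate (0.171 and 0.102), and scaling to the FPKM total (0.112). AT3G47650, which starts 29 bp downstream of *PYE* on the same strand, was also lower in all libraries of the mutant lines, at 204 and 206 FPKM in WT, 150 and 153 in *nerd-1*, with 169 and 183 in *nerd-1*+T.

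Ferritins. *FER1*, the most abundant of the 10 genes, was at 137 and 141 FPKM in WT, 102 and 100 in *nerd-1*, with 159 and 179 in *nerd-1*+T. The 3 genotypes did not overlap, with *nerd-1* lowest and *nerd-1*+T highest, the reverse of *BHLH101*. Its mean was 0.726 of WT in *nerd-1* (log2 change -0.46, SE 0.07, limma adjusted *p* = 0.00435) and 1.21 times WT in *nerd-1*+T (0.27, SE 0.07, adjusted *p* = 0.0224), and the difference between the lines was 0.73 (95% interval 0.56 to 0.90, adjusted *p* = 0.00226). The rise in *nerd-1*+T was not firm, being lost without WT replicate 1 (adjusted *p* = 0.121), WT replicate 2 (0.0894) or either *nerd-1* replicate (0.059 each) and in a fit of the 2 genotypes alone (0.0596), while the other 2 calls held under every alternative. A long noncoding RNA gene on the opposite strand, AT5G01595, overlaps *FER1* by 1334 bp and was at 0.363 to 1.18 FPKM over the 6 libraries.

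The other ferritin genes did not follow *FER1* in both lines. *FER4* was at 49.95 and 45.6 FPKM in WT, 30.1 and 31.9 in *nerd-1*, with 40.6 and 43.5 in *nerd-1*+T, so that it was lower in *nerd-1* (log2 change -0.61, adjusted *p* = 0.00206) and not called in *nerd-1*+T (-0.18, adjusted *p* = 0.0727, which passed at 0.0366 without *nerd-1*+T replicate 2). Between the lines *FER4* was higher in *nerd-1*+T, as *FER1* was (log2 difference 0.43, adjusted *p* = 0.009 in limma). This call depended on single *nerd-1* libraries. *FER3* was at 38.1 and 39.9 FPKM in WT, 33.0 and 31.4 in *nerd-1*, with 32.8 and 30.02 in *nerd-1*+T. It was lower than WT in both lines (log2 changes -0.27 and -0.31, adjusted *p* = 0.0158 and 0.0114), but the first call was lost without any 1 of the WT and *nerd-1* replicates (0.0589 to 0.104), the second without WT replicate 2 (0.0774), and both after scaling by the median feature. *FER2*, the ferritin of seeds, was at 0.596 and 0.827 FPKM in WT, 1.14 and 1.52 in *nerd-1*, with 0.400 and 0.460 in *nerd-1*+T. It reached 1 FPKM only in the *nerd-1* libraries and so was tested only because it was high there, with a ratio of means of 1.87 to WT. Its rise in *nerd-1* (log2 change 0.45, adjusted *p* = 0.031) was lost without any 1 of the WT and *nerd-1* replicates (0.0505 to 0.145). In *nerd-1*, the 2 most abundant ferritin transcripts of WT, *FER1* and *FER4*, were thus both lower.

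Other genes of iron homeostasis were read from 4 lists of 53 genes in all, of which 49 were tested. Calls against WT were about as frequent among them as among all features, at 57.1% against 55.7% in *nerd-1* and 51.0% against 53.1% in *nerd-1*+T. Between the lines the shares called were 46.9% against 37.9%. In *nerd-1* 11 were higher than WT and 17 lower, with a median log2 change of -0.10 against -0.11 over all features. In *nerd-1*+T 4 were higher and 21 lower, with a median of -0.21 against -0.17. Between the lines, 4 were higher in *nerd-1*+T and 19 lower, beside 14.0% and 24.0% of all features, with a median of -0.15 against -0.06. For the single lists, the shares over all features are again 19.4% raised and 36.3% lowered in *nerd-1*, with 13.2% and 39.8% for *nerd-1*+T. The 12 tested regulators and peptides had 1 gene higher and 7 lower in *nerd-1*, with 2 higher and 7 lower in *nerd-1*+T. The 11 tested genes of uptake, reduction and coumarin secretion had 2 higher and 2 lower in *nerd-1*, with 1 higher and 6 lower in *nerd-1*+T. The 23 tested genes of transport and chelation had 7 higher and 6 lower in *nerd-1*, with 1 higher and 7 lower in *nerd-1*+T. The genes described next with their FPKM passed the test against WT in either line with a log2 change of at least 1 from the median feature. Further genes given by their log2 changes alone did not have to meet this rule and were named after their values were seen.

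*ILR3*, 1 of 4 class IVc bHLH genes in the lists, was at 52.6 and 56.9 FPKM in WT, 140 and 142 in *nerd-1*, with 111 and 101 in *nerd-1*+T. All libraries of the mutant lines were above WT, by 2.58 times in the mean of *nerd-1* (log2 change 1.35, adjusted *p* = 0.000265) and 1.94 times in *nerd-1*+T (0.94, adjusted *p* = 0.000466). It was lower in *nerd-1*+T than in *nerd-1* (-0.41, adjusted *p* = 0.00993, lost at 0.0722 and 0.0818 without *nerd-1* replicate 1 or 2). The other 3 class IVc genes were lower than WT in both lines. *bHLH115* had log2 changes of -0.56 and -0.54 (adjusted *p* = 0.00289 and 0.00286), and *bHLH34* of -0.25 and -0.66 (0.0202 and 0.00107), where the first call was lost without any 1 of the WT and *nerd-1* replicates (0.059 to 0.125). *bHLH104* was close to the median feature at -0.15 and -0.16 (0.0373 and 0.0316), and both calls were lost without any 1 of the WT and *nerd-1* replicates (0.137 to 0.178 and 0.0864 to 0.162) and after scaling by the median feature, which turned the second change to 0.01.

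AT2G30766, AT1G47395 and AT1G47400 had the lowest levels in *nerd-1*+T relative to WT among the tested genes of the list of regulators and peptides. AT2G30766 was at 74.0 and 71.5 FPKM in WT, 33.7 and 32.0 in *nerd-1*, with 11.1 and 15.7 in *nerd-1*+T, with log2 changes of -1.12 (adjusted *p* = 0.00329) and -2.38 (adjusted *p* = 0.000311). The genotypes did not overlap, and *nerd-1*+T was lower than *nerd-1* by -1.25 (adjusted *p* = 0.00416). AT1G47395 was at 9.08 and 10.4, 7.14 and 7.64, and 2.27 and 1.78 FPKM in the same order, and AT1G47400 at 4.33 and 3.23, 2.86 and 2.42, and 1.22 and 0.842. Both were lower in *nerd-1*+T than in WT (log2 changes -1.83 and -1.23, adjusted *p* = 0.000248 and 0.00252), while the smaller change of AT1G47395 in *nerd-1* (-0.36, adjusted *p* = 0.038) was lost without any 1 of the WT and *nerd-1* replicates (0.0621 to 0.177) and that of AT1G47400 did not pass (adjusted *p* = 0.0845). The longest exact stretch that these 2 transcripts share is 59 bases, shorter than a read.

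*FRO4* and *FRO5*, reductases of the *FRO2* family that are known for copper reduction, behaved unlike *FRO2*. *FRO4* was at 24.3 and 25.3 FPKM in WT, 22.2 and 20.9 in *nerd-1*, with 6.52 and 6.82 in *nerd-1*+T. *FRO5* was at 3.52 and 3.57 FPKM in WT, 3.64 and 3.70 in *nerd-1*, with 0.132 and 0.208 in *nerd-1*+T. In *nerd-1*+T both were far below all other libraries, at 0.269 and 0.0479 of the WT mean (log2 changes -1.75 and -1.96, adjusted *p* = 5.85e-05 and 8.57e-05). The longest exact stretch that their transcripts share is 92 bases, shorter than a read, and reads that could map to both with mismatches were not examined. In *nerd-1* the change of *FRO5* was 0.04 (95% interval -0.15 to 0.23), and the small decrease of *FRO4* (-0.19, adjusted *p* = 0.032) was lost without any 1 of the WT and *nerd-1* replicates (0.0825 to 0.184).

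Genes for nicotianamine, the chelator that carries iron between cells, and for its transport did not move as a group, and 3 of them had a change of at least 1 from the median. *NAS1*, a nicotianamine synthase gene, was at 78.8 and 82.8 FPKM in WT, 36.3 and 33.1 in *nerd-1*, with 28.5 and 32.6 in *nerd-1*+T. *NAS4*, which PYE is known to repress, was at 27.6 and 29.1 FPKM in WT, 14.0 and 14.5 in *nerd-1*, with 9.00 and 9.49 in *nerd-1*+T. Both were lower than WT in all 4 libraries of the mutant lines, with log2 changes of -1.20 and -0.94 in *nerd-1* (adjusted *p* = 0.000571 and 0.000381) and -1.38 and -1.52 in *nerd-1*+T (adjusted *p* = 0.000255 and 7.64e-05). Among the other synthase genes, *NAS3* was lower in *nerd-1* (log2 change -0.58, adjusted *p* = 0.00585) and *NAS2* was higher in *nerd-1*+T (0.80, adjusted *p* = 0.00496). Of the other genes that PYE is known to repress, the zinc and nicotianamine transporter gene *ZIF1* was higher in *nerd-1* (0.83, adjusted *p* = 0.000976), with -0.04 in *nerd-1*+T (adjusted *p* = 0.654), and the reductase gene *FRO3* passed the test in neither line (0.07 and -0.04, adjusted *p* = 0.29 and 0.555). *YSL3*, a relative of *YSL2*, was higher in *nerd-1* (0.67, adjusted *p* = 0.00346), with 0.05 in *nerd-1*+T (adjusted *p* = 0.655, but 0.0339 without *nerd-1*+T replicate 2). *YSL2*, a transporter of metal and nicotianamine complexes, was at 37.0 and 38.0 FPKM in WT, 42.6 and 43.9 in *nerd-1*, with 14.6 and 13.05 in *nerd-1*+T. It fell in *nerd-1*+T (log2 change -1.38, adjusted *p* = 0.000129), and its small rise in *nerd-1* (0.20, adjusted *p* = 0.0421) was lost without any 1 of the WT and *nerd-1* replicates (0.126 to 0.19) and was 0.06 after scaling to the FPKM total.

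**Figure D4:**
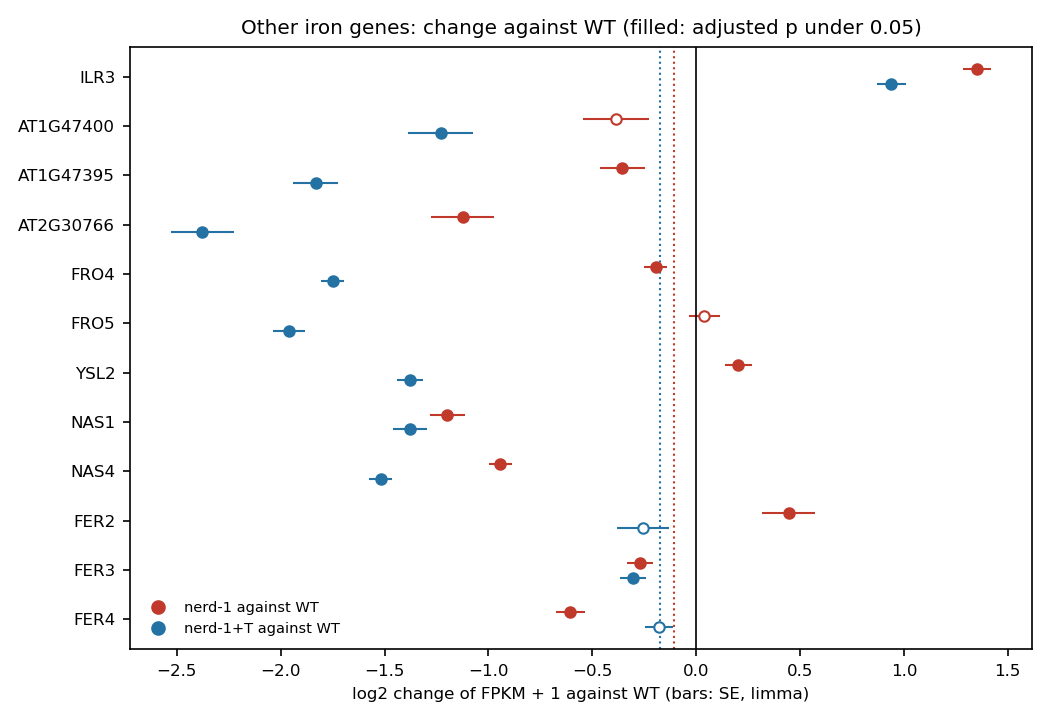
Log2 change of FPKM + 1 against WT for 12 other iron genes, namely those with a change of at least 1 from the median feature in either line, and the ferritins *FER2*, *FER3* and *FER4*. Red points are *nerd-1*, blue points *nerd-1*+T, bars the SE from limma, filled points an adjusted *p* under 0.05, and dotted lines the median of all tested features. *ILR3* is the one gene raised in both lines, and *FRO4*, *FRO5* and *YSL2* lie near 0 in *nerd-1* and between -1.38 and -1.96 in *nerd-1*+T.

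Set against their distance from WT in *nerd-1*, the 10 genes had no common position in *nerd-1*+T, where the *NERD* transcript was 4.55 times that of WT. By their means, *IRT1*, *FRO2* and *PYE* were no nearer to WT than in *nerd-1*, although the difference between the lines did not pass the test for *IRT1* and *FRO2*. *FIT*, *BHLH38*, *BHLH39* and *BHLH100* were nearer to WT, with the difference between the lines passing for *FIT* and *BHLH39* (adjusted *p* = 0.0381 and 0.0303 in limma) and not for *BHLH38* (0.106) or *BHLH100* (0.196 with no filter). The calls of *FIT* and *BHLH39* between the lines, like that of *PYE*, were not firm. They were lost with no filter and in a fit of the 2 genotypes alone, among other alternatives. *BHLH101*, *FER1* and *BTS* lay beyond WT on the other side. *BTS* was further from WT there than in *nerd-1*, where its difference from WT did not pass the test.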

How the data were processed

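RNA of 14-d-old seedlings was sequenced as single 125-base reads from a stranded polyA library kit, with 2 replicates for each of 3 genotypes, grouped by their labels. Per the labels and Methods, the authors removed organelle and rRNA reads with Bowtie2 2.3.4, mapped to TAIR10 with TopHat2 2.0.7 and made the deposited FPKM values with Cufflinks 2.2.1, per library. Cufflinks shares reads between overlapping features, and an exact 0 can be a failed estimate. FPKM hold no counts, so the depth behind a value is unknown, no counting interval is given, and precision was judged from the replicates. The 4 entries per library without an identifier were left out.

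Log2(FPKM + 1) was fitted with limma 3.58.1 in R 4.3.3 (trend, all 6 libraries, no block). The filter was a level of 1 FPKM or more in 2 or more libraries. Since the files hold FPKM and not counts, the test laid out for normalized values was the one used. In data simulated for *nerd-1* against WT on the 20249 features, 98% of features changed by 0.5 and 100% of those changed by 1 or more were recovered, and 5.69% of calls were false. The simulation changed 50 features for each size of change and gave features of the same level the same spread in all genotypes. In the data 55.7% of features were called in this comparison, so these rates need not hold there. The comparisons with *nerd-1*+T, whose replicates were further apart, were not simulated. Alternatives were a pseudocount of 0.1, other filters and scalings, no trend, a replicate block, the 2 genotypes alone, leaving out each library and, chosen after seeing the data, scaling without *MT1A*.

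The 10 genes and all lists were chosen with earlier results of these data known. Other genes were named if the adjusted *p* against WT was under 0.05 in either line, the log2 change was at least 1 from the median feature and both libraries lay beyond both WT libraries. All ferritins were named. The most similar 3 genes per profile were named by Pearson's r over the 6 libraries. *MT1A*, *CAB1*, neighbouring genes and the further class IVc, *NAS*, *YSL*, *ZIF1* and *FRO3* genes were named after their values were seen. Gene positions of TAIR10.1 were the same as those in a supplementary list of the paper for 69 of 69 loci compared. The positions behind the FPKM values were not compared.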

Additional observations from a re-analysis of the deposited data

Results flagged for a closer look

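*BHLH101*, *FER1* and *YSL2* passed the test against WT in both mutant lines in opposite directions, and also between the lines. The log2 difference, *nerd-1*+T minus *nerd-1*, was -1.63 for *BHLH101* (adjusted *p* = 0.000276 in limma), 0.73 for *FER1* (adjusted *p* = 0.00226) and -1.58 for *YSL2* (adjusted *p* = 0.000276). For *FER1* the call of *nerd-1*+T against WT, and for *YSL2* that of *nerd-1* against WT, depended on single libraries and on other settings. In limma, the *FER1* call was lost in a fit of the 2 genotypes alone (adjusted *p* = 0.0596). The *YSL2* call was lost with no filter (0.0622), a replicate block (0.0663), no trend (0.0537) and scaling to the FPKM total (0.446). The differences between the lines held under every alternative run. No group has 4 or more samples, so single libraries were not screened.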

How the results depend on the processing

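Of the 21 calls made for the 10 genes over the 3 comparisons, 14 held in all 15 alternatives, and no called gene among them changed direction. Leaving out a library lost the call in 24 of 162 results for single genes and gained one in 4, and the other settings lost 15 of 240 and gained 4. For the 12 other iron genes named, the same numbers were 28 of 216 and 2, then 14 of 315 and 2. All these totals include values not called in the main fit (6 of 27 for the 10 genes), which had no call to lose. The share of calls lost was therefore higher than the totals show. *bHLH104* turned from -0.16 to 0.0108 in *nerd-1*+T against WT after scaling by the median feature. The number of genes called in *nerd-1* against WT was 8, with 6 to 9 when 1 library was left out, and in *nerd-1*+T against WT it was 7, with 5 to 8. Between the lines it was 6, but 3 with no filter on low values, 3 in a fit of the 2 genotypes alone, and 3 to 6 when 1 library was left out. Leaving out a library lowers the residual degrees of freedom from 3 to 2.

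Replicate numbers did not pair the libraries: after the genotype means were taken off, same-numbered libraries correlated at 0.049 (WT with *nerd-1*), 0.088 (WT with *nerd-1*+T) and -0.001 (the mutant lines). With a replicate block, 7, 7 and 4 genes were called in the 3 comparisons. *BHLH39* was lost in *nerd-1* against WT (adjusted *p* = 0.0614) and between the lines (0.051), as was *FIT* between the lines (0.0579). Without the *MT1A* transcript in the scaling the counts were 8, 7 and 6. Precision below 1 FPKM could not be judged from depth, which touches *BHLH38* and *BHLH100* most. The cause of the lost calls was not tested.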

Other observations

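The genes whose FPKM followed those of the iron genes most closely over the 6 libraries are given as values, with no test, since the points share libraries and genotypes and many genes fit any such profile. For the mean of the 3 tested class Ib genes they were *MGL* (r = 0.997), *TIP* (r = 0.997) and *GH9B12* (r = 0.996), and 30 genes had r over 0.99. *TIP* was at 18.5 and 19.9 FPKM in WT, 29.6 and 28.6 in *nerd-1*, with 19.3 and 18.2 in *nerd-1*+T. For *FER1* they were *CHUP1* (r = 0.999), AT3G13437 (r = 0.997) and AT1G62480 (r = 0.996), and 22 genes had r over 0.99. *CHUP1* was at 214 and 215 FPKM in WT, 164 and 160 in *nerd-1*, with 242 and 270 in *nerd-1*+T.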
